A study of Mus musculus with 24 samples.

Results

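Metallothioneins and targets of the transcription factor NRF2 were followed as 10 genes, Mt1, Mt2, Nfe2l2, Gclm, Gclc, Gsr, Srxn1, Txnrd1, Nqo1 and Hmox1. They were taken by symbol from the 55401 genes counted in gastrocnemius muscle. These genes and the pathway lists below were chosen with earlier results of these data known. Their shares of called genes, set beside those of all genes, are therefore descriptions. The muscle came from male C57BL6 mice that were 5 weeks old (young) or 11 weeks old (adult) when they received a scald burn over 25% of the total body surface area or a sham procedure, and it was collected 24 h later. The 4 groups, young and adult sham and young and adult burn, each held 3 mice and 1 poly-A RNA library per mouse. Sham mice had the same anesthesia and analgesia without the scald and without fluid resuscitation, so the scald and the resuscitation cannot be told apart. Whole muscle was sequenced, in which fewer cells of a type and less RNA per cell cannot be told apart.

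NRF2, the product of Nfe2l2, is held in the cytoplasm by KEAP1 and degraded. Oxidants and electrophiles release it, and it then binds antioxidant response elements with small MAF partners and raises genes of glutathione and thioredoxin metabolism. Metallothioneins are small cysteine-rich proteins that bind zinc and copper. Their genes carry metal response elements, which the zinc sensor MTF1 binds, and are also induced by glucocorticoids and inflammatory signals.

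The 250 bases before the annotated start of 4 members are printed from RefSeq on GRCm38.p6, to show where the core letters of these elements stand. RefSeq windows were matched for 7 of the 10 members, and for Txnrd1 at 3 starts. In the first pair of sequences, capitals mark the metal response element core, TGCACNC or TGCGCNC on either strand, and both metallothionein genes are shown because Mt1 and Mt2 are neighbours on chromosome 8. The Mt1 window is chr8:94178839-94179088 and the Mt2 window is chr8:94172368-94172617, both on the plus strand.
Mt1: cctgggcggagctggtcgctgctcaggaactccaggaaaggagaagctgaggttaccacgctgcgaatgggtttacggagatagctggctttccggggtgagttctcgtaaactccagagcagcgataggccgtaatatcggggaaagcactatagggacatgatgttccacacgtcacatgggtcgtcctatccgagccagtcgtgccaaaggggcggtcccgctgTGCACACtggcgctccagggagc
Mt2: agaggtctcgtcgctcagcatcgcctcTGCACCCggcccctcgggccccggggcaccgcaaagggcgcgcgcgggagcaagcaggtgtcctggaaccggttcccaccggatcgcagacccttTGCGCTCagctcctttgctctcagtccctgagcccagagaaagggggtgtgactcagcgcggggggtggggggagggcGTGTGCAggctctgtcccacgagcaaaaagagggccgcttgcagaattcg
In the next pair, capitals mark the antioxidant response element core, TGACNNNGC on either strand. Gclm and Txnrd1 are shown as a gene of glutathione synthesis and one of the thioredoxin system that both hold this core before a start. The Gclm window is chr3:122245307-122245556. The Txnrd1 window is chr10:82858956-82859205, before one of its annotated starts and inside the longest gene model. Both are on the plus strand.
Gclm: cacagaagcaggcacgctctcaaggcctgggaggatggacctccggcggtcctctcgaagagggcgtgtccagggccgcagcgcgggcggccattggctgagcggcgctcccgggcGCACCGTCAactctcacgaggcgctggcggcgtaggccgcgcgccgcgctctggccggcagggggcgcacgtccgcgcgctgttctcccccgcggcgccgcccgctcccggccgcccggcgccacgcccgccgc
Txnrd1: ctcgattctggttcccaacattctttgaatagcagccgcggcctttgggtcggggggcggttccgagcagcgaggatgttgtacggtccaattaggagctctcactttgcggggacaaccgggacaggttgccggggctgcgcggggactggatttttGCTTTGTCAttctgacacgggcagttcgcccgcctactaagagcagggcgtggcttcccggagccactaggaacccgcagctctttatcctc

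The search covered 300 bases, with 50 after the start, and counted position -1 as the base before it. Mt2 held 4 metal response element cores, beginning at -223, -128, -50 and 5. Mt1 held 3, beginning at -23, 3 and 21. Of all 32851 windows of this length, 25.7% held at least 1 such core and 1.97% held 3 or more. Gclm also held 3, of which the one at -138 to -132 overlaps its antioxidant response element core at -134 to -126, and Srxn1 held 1. The antioxidant response element core was present in 12.4% of all windows. It was found in Nfe2l2 at -240 to -232, in Mt2 at -79 to -71, in Srxn1 at 29 to 37, in Txnrd1 at -92 to -84 and in Gclm. These letters were not in the windows of Mt1 and Nqo1 or at the other 2 annotated starts of Txnrd1. Bases beyond the 300 of each window were not searched, so the windows do not show that Mt1 or Nqo1 lacks this core. A match of letters is a description of the sequence only.

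Total counts ran from 4392605 to 5688512 per library. The muscle fibre markers Acta1, Ckm, Myh4, Myh1, Tnnt3 and Mylpf were counted in every library, with a summed level of 80354 to 159173 CPM, which are counts scaled to a common library size. Young burn replicate 2 stood apart. Its mean Pearson correlation of log2 CPM with the other libraries was 0.930, against 0.956 to 0.968 for the rest. In its heatmap of burn effects the study leaves 1 young burn animal out as an outlier and shows replicates 1 and 3. Its text does not number the animal or say whether its other comparisons left it out. The tests here were made in the 11 libraries without replicate 2 and repeated with all 12. Levels are CPM after TMM normalization, and means exclude replicate 2 of young burn. Differences are log2 fold changes from edgeR's quasi-likelihood test with Benjamini-Hochberg adjustment over 12651 genes (12408 with 12 libraries), and genes with an adjusted p under 0.05 were called. Errors of log2 fold changes are standard errors (SE). Nothing in the labels ties a mouse to a litter or day.

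**Figure D1:**
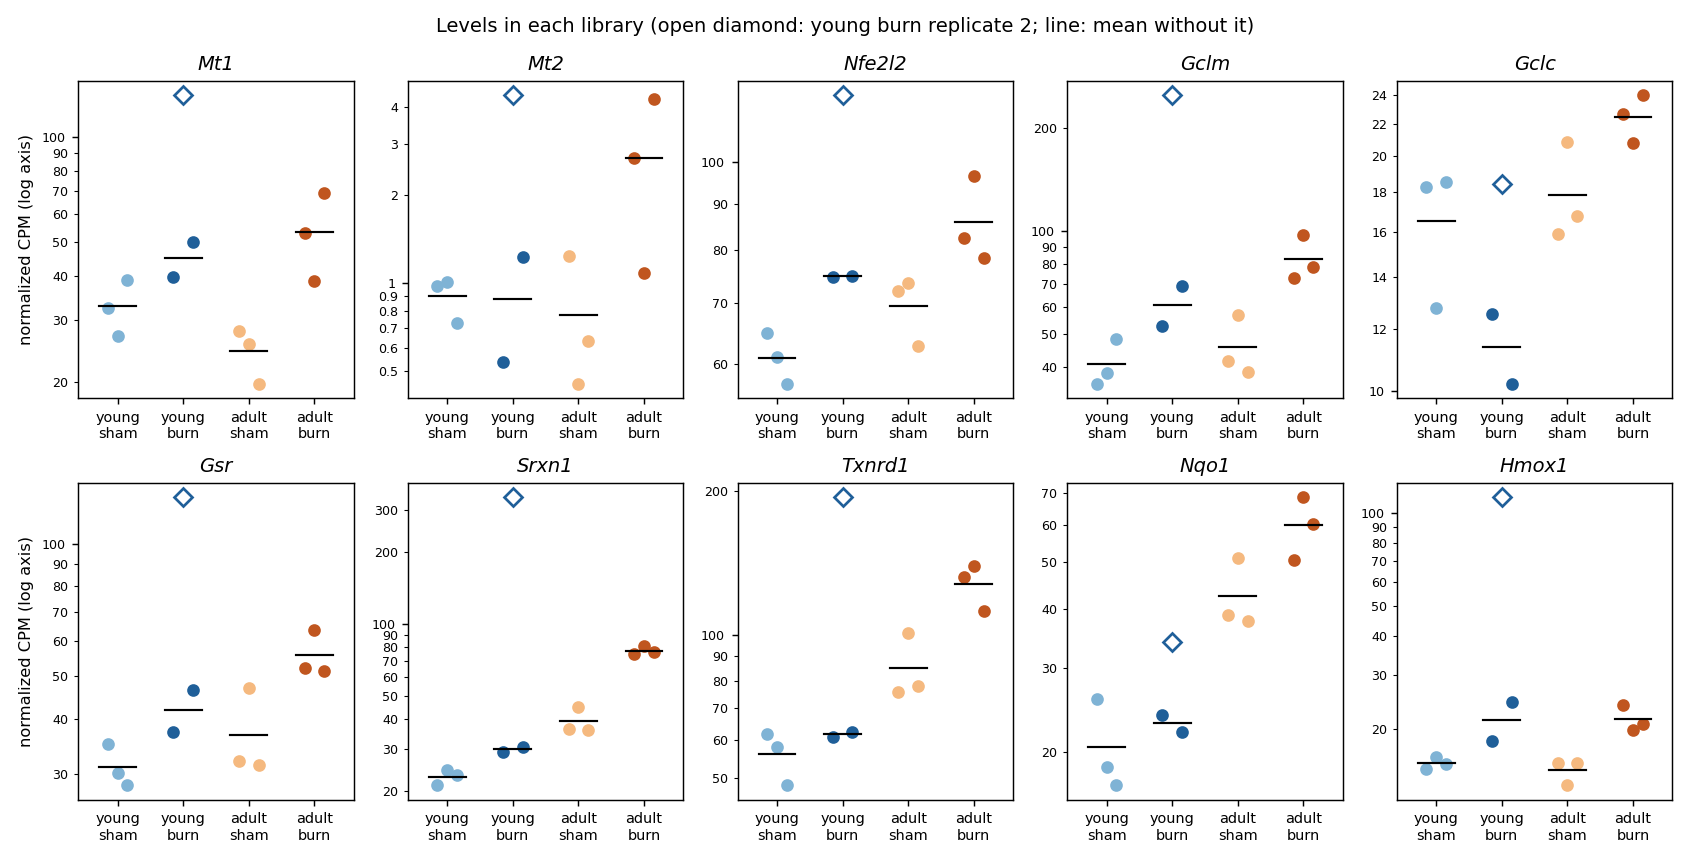
Normalized CPM of the 10 genes in each library, on a log axis that differs between panels, by group. Filled points are libraries, black lines are means of 3 libraries (2 in young burn), and the open diamond is young burn replicate 2, which is the highest of all 12 libraries for every gene but Gclc and Nqo1.

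The 10 genes are protein-coding, and 5 of them lie on chromosome 8 of GRCm38. Mt2 (chr8:94172664-94173568) and Mt1 (chr8:94179082-94180327) lie side by side on the plus strand. Gsr (chr8:33652523-33698163) and Hmox1 (chr8:75093621-75100589) are on the plus strand and Nqo1 (chr8:107388225-107403206) on the minus strand. Nfe2l2 (chr2:75675513-75704641) is on the minus strand of chromosome 2, and Srxn1 (chr2:152105516-152111376) on its plus strand. The others, all on plus strands, are Gclm (chr3:122245557-122270732), Gclc (chr9:77754535-77794485) and Txnrd1 (chr10:82833951-82897712).

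All 10 genes were detected in every library and passed the filter on low counts, and their group means were highest in adult burn for all 10. Per kilobase of exon, the highest group mean in adult burn was that of Mt1 at 43.0 CPM per kb, followed by Nqo1 at 38.5, Srxn1 at 27.4, Nfe2l2 at 22.6 and Gsr at 20.3. The lowest were Gclc at 5.96 and Mt2 at 4.56 CPM per kb. In young sham the order was again led by Mt1, at 26.3 CPM per kb, with Nfe2l2 next at 16.1 and Mt2 lowest at 1.54. Mt2 rested on 2 to 24 counts per library, so its levels carry a large counting error. In the 11 libraries of the main fit, only adult burn replicates 1 and 3 held at least 10 counts of Mt2, at 16 and 23. It thus passed the filter only through the group where it was highest, and its rank there is no support for a rise.

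Nfe2l2, which encodes NRF2, varied least between groups, by 1.41-fold from its highest to its lowest mean. Its level in young sham was 64.8, 61.0 and 57.05 CPM in replicates 1 to 3, and in young burn it was 74.7 and 75.01 CPM in replicates 1 and 3 and 119 CPM in replicate 2. Adult sham libraries were at 72.2, 73.6 and 62.8 CPM and adult burn libraries at 82.5, 96.7 and 78.5 CPM. Burn and sham libraries did not overlap in either age. The log2 difference of burn over sham was 0.30 (SE 0.11, adjusted p = 0.204) in adult mice and 0.31 (SE 0.12, adjusted p = 0.221) in young mice, and neither passed the test.

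Gclm and Gclc encode the modifier and the catalytic subunit of glutamate-cysteine ligase, which makes the first and limiting step of glutathione synthesis. Gclm was at 35.8, 38.5 and 48.3 CPM in young sham and at 52.7 and 68.9 CPM in young burn replicates 1 and 3, with 249 CPM in replicate 2. It was at 41.8, 56.9 and 38.8 CPM in adult sham and at 72.9, 97.6 and 78.7 CPM in adult burn. Each burn library was above each sham library of its age. The adult log2 difference of 0.86 (SE 0.16) passed the test with an adjusted p of 0.0204, and the young difference of 0.58 (SE 0.18) did not, with an adjusted p of 0.134.

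Gclc, the catalytic subunit, followed another pattern. Its libraries were at 18.3, 12.8 and 18.5 CPM in young sham, at 12.5 and 10.2 CPM in young burn replicates 1 and 3, and at 18.4 CPM in replicate 2. In adult mice they were at 15.9, 20.8 and 16.8 CPM after sham and at 22.6, 20.8 and 23.9 CPM after burn. The young burn libraries 1 and 3 were the lowest of all 12, and adult sham replicate 2 lay just above adult burn replicate 2. The log2 difference of burn over sham was 0.33 (SE 0.16, adjusted p = 0.376) in adult mice and -0.51 (SE 0.20, adjusted p = 0.228) in young mice.

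Gsr encodes glutathione reductase, which restores glutathione with NADPH. Its level was 35.1, 30.2 and 28.3 CPM in young sham, 37.3 and 46.6 CPM in young burn replicates 1 and 3, and 127 CPM in replicate 2. Adult sham libraries were at 32.1, 46.9 and 31.4 CPM and adult burn libraries at 52.3, 63.8 and 51.4 CPM. Burn libraries were above sham libraries in both ages, with adult sham replicate 2 the highest of the shams. The log2 difference was 0.60 (SE 0.15, adjusted p = 0.0794) in adult mice and 0.44 (SE 0.18, adjusted p = 0.241) in young mice.

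Srxn1 encodes sulfiredoxin, which repairs overoxidized peroxiredoxins, and Txnrd1 the cytosolic thioredoxin reductase. Srxn1 was at 21.2, 24.5 and 23.4 CPM in young sham and at 29.2 and 30.7 CPM in young burn replicates 1 and 3, against 339 CPM in replicate 2. It was at 36.4, 45.1 and 36.1 CPM in adult sham and at 74.6, 80.8 and 76.3 CPM in adult burn. Apart from young burn replicate 2, the 4 groups did not overlap, in the order adult burn, adult sham, young burn and young sham. The log2 difference of burn over sham was 0.98 in adult mice (SE 0.10, adjusted p = 0.000459) and 0.39 in young mice (SE 0.13, adjusted p = 0.164).

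Txnrd1 was at 61.9, 58.1 and 48.3 CPM in young sham and at 60.9 and 62.5 CPM in young burn replicates 1 and 3, against 194 CPM in replicate 2. In adult mice it was at 75.9, 101 and 77.8 CPM after sham and at 132, 139 and 112 CPM after burn. The adult groups did not overlap, whereas young burn replicate 1 lay within the young sham range. The adult log2 difference was 0.59 (SE 0.13, adjusted p = 0.0443) and the young one was 0.15 (SE 0.15, adjusted p = 0.677).

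Nqo1 encodes a quinone reductase that is widely used as a marker of NRF2 activity. It was at 25.8, 18.6 and 17.1 CPM in young sham and at 24.0 and 22.1 CPM in young burn replicates 1 and 3, with 34.1 CPM in replicate 2. Adult sham libraries were at 38.9, 51.0 and 37.8 CPM and adult burn libraries at 50.6, 68.5 and 60.1 CPM. Every adult library was above every young library, and burn and sham overlapped in both ages. The log2 difference of burn over sham was 0.49 (SE 0.15, adjusted p = 0.151) in adult mice and 0.19 (SE 0.20, adjusted p = 0.697) in young mice.

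Hmox1 encodes heme oxygenase 1, which breaks down heme and is also strongly expressed by macrophages. It was at 14.9, 16.2 and 15.4 CPM in young sham, at 18.3 and 24.5 CPM in young burn replicates 1 and 3, and at 113 CPM in replicate 2. Adult sham libraries were at 15.5, 13.1 and 15.5 CPM and adult burn libraries at 24.0, 19.9 and 20.8 CPM. Burn libraries lay above sham libraries in both ages, and the sham groups of both ages overlapped. The log2 difference was 0.55 (SE 0.15, adjusted p = 0.0962) in adult mice and 0.47 (SE 0.16, adjusted p = 0.173) in young mice.

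The summed level of 8 macrophage markers was also higher in burn than in sham libraries of each age. It was 190 to 257 CPM in young sham, 343 to 560 CPM in young burn replicates 1 and 3 and 388 CPM in replicate 2. In adult mice it was 188 to 224 CPM after sham and 237 to 314 CPM after burn. Of the 7 macrophage markers that passed the filter, all 7 had positive differences in both ages, and Marco was at 0 in 8 of 12 libraries. Their median log2 difference was 1.10 in young mice and 0.38 in adult mice. In young mice 3 were called, where 0.664% of all genes were, and in adult mice 0, where 0.909% were. For a difference between the burn effects of both ages, 0 of the 7 were called, so none was shown. The part of these cells in the level of Hmox1 was not tested. The summed level of 5 red blood cell genes was 260 to 277 CPM in adult burn and 294 to 491 CPM in adult sham, and no gene of that list was called in either burn comparison.

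Mt1 and Mt2 encode the metallothioneins found in most tissues. Mt1 was at 32.4, 26.9 and 39.0 CPM in young sham and at 39.8 and 50.1 CPM in young burn replicates 1 and 3, with 131 CPM in replicate 2. It was at 27.9, 25.6 and 19.7 CPM in adult sham and at 53.0, 38.7 and 69.1 CPM in adult burn. Burn and sham libraries did not overlap in either age, and in young mice the gap was small. The adult log2 difference was 1.13 (SE 0.20, adjusted p = 0.0184) and the young one was 0.47 (SE 0.22, adjusted p = 0.307).

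Mt2 was counted 4, 5 and 3 times in young sham, 3 and 6 times in young burn replicates 1 and 3, and 24 times in replicate 2. It was counted 6, 2 and 3 times in adult sham and 16, 6 and 23 times in adult burn. Adult burn replicate 2, at 1.08 CPM, lay below adult sham replicate 1, at 1.24 CPM, so the groups overlapped. The log2 difference was 1.73 (SE 0.55, adjusted p = 0.163) in adult mice and -0.07 (SE 0.74, adjusted p = 0.978) in young mice. The 2 genes are paralogs, and the sources used here do not give how reads that match both were counted.

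Over the whole set, adult burn was above adult sham for all 10 genes, with a median log2 difference of 0.60 against -0.0037 over all 12651 genes tested. Mt2 is counted here and among the genes with an unadjusted p under 0.05, although it passed the filter on low counts only through adult burn. Mt1, Gclm, Srxn1 and Txnrd1 rose, which is 4 of 10, where 0.909% of all genes were called in this comparison. The share of mitochondrial counts was 7.64 to 10.1% in adult burn and 10.2 to 11.9% in adult sham libraries, and its part was not tested. The study's RNA quality report gives no RNA integrity number for any sample. Its ratio of large to small ribosomal RNA was higher in adult sham, except replicate 2, than in every adult burn sample. The part of RNA quality was not tested. The CPM of the groups did not overlap for 7 of the 10, all higher in burn, where 19.9% of all genes did not overlap in either direction. In the fit of all 12 libraries, 0 of the 10 passed, as 0.00806% of all genes did, and the adjusted p of the 4 genes was 0.603 to 0.789. At an unadjusted p under 0.05 the edgeR test passed 9 of 10 in the 11 libraries, where 13.7% of all genes passed. DESeq2 called 5 there, and 2.33% of the genes with an adjusted p. The log2 difference of Srxn1 was 0.98 and that of Mt1 1.13 in both fits, while the common biological coefficient of variation was 0.118 without and 0.168 with young burn replicate 2.

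The adult calls also depended on single libraries. Srxn1 kept its call without any 1 of the 6 adult libraries, at 0.000714 to 0.00540. Mt1 lost its call without adult burn replicate 3 (adjusted p = 0.0637) or without adult sham replicate 3 (adjusted p = 0.0901). Gclm lost its call without adult burn replicates 2 or 3 or adult sham replicates 1 or 3, with adjusted p of 0.0637 to 0.108. Txnrd1 lost its call without any 1 of these libraries except adult sham replicate 2, with adjusted p of 0.0637 to 0.196, and it was also lost with only the 2 adult groups in the fit (adjusted p = 0.0650) or with library size alone as the scaling (adjusted p = 0.107).

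In young mice, burn was above sham for 8 of the 10 genes, with a median log2 difference of 0.35 against 0.0095 over all genes. None of the 10 passed the edgeR test, where 0.664% of all genes did. At an unadjusted p under 0.05 it passed 7, where 16% of all genes passed, and DESeq2 called 0, and 2.12% of the genes with an adjusted p. The groups did not overlap for 7 of 10, with 6 higher and Gclc lower in burn, but with 2 burn libraries 32.4% of all genes did not overlap. When replicate 2 was added, the median log2 difference was 1.16 and 0 of 10 passed, where 0.0645% of all genes did. The largest value in that fit was for Srxn1, at 2.53 with an SE of 0.72 and an adjusted p of 0.101.

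**Figure D2:**
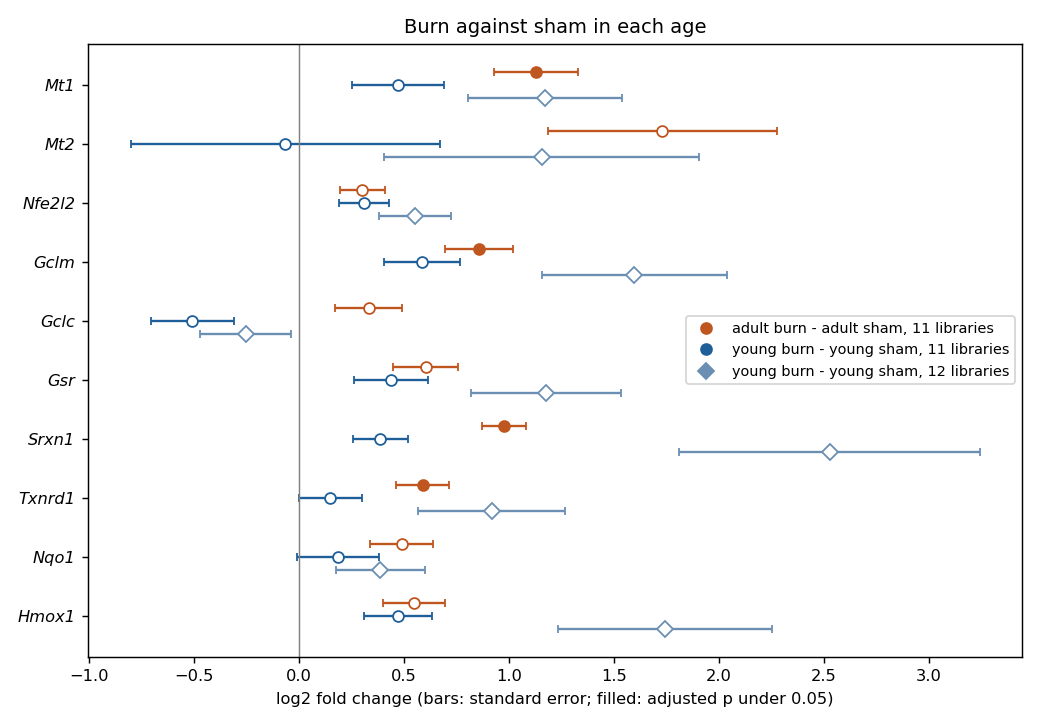
Log2 fold change of burn over sham for each gene, with bars of 1 SE and filled marks for an adjusted p under 0.05. Adult values (orange circles) are positive for all 10 genes and filled for Mt1, Gclm, Srxn1 and Txnrd1, and the young values with all 12 libraries (diamonds) lie above those with 11 (blue circles), as for Srxn1 at 2.53 and 0.39.

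With age as a term and burn tested over both ages, 5 of 10 genes rose, where 2.15% of all genes were called. They were Mt1 (log2 difference 0.83, SE 0.17, adjusted p = 0.0179), Hmox1 (0.51, SE 0.11, adjusted p = 0.0229), Gclm (0.74, SE 0.12, adjusted p = 0.00625), Srxn1 (0.75, SE 0.11, adjusted p = 0.00386) and Gsr (0.53, SE 0.12, adjusted p = 0.0257). In the same test 5 of 7 macrophage markers rose, such as Cd68 (1.07, adjusted p = 0.00804). Of 7 neutrophil markers only S100a8 (1.78, adjusted p = 0.0235) and S100a9 (2.07, adjusted p = 0.00546) passed the filter, and both rose. Ly6g, Mpo, Elane, Csf3r and Cxcr2 had at most 11 counts in any library and were not tested. A rise of the whole neutrophil list was not shown. The part of macrophages and neutrophils in the members was not tested. Nfe2l2, at 0.31 with an adjusted p of 0.0545, and Txnrd1, at 0.40 with an adjusted p of 0.0734, did not pass. The value of Gclc was 0.00013, with a 95% interval of -0.42 to 0.42, in which opposite signs of both ages met. In all 12 libraries 1 of 10 passed, where 0.717% of all genes did. It was Mt1, with a log2 difference of 1.15 and an adjusted p of 0.0497.

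Gclm and Srxn1 passed this test without any 1 of the 11 libraries. Mt1 lost its call without adult sham replicate 3 (adjusted p = 0.0514) or young burn replicate 3 (0.0592). Hmox1 lost it without adult burn replicate 1 (0.0505), adult sham replicate 3 (0.0533) or young burn replicate 3 (0.106). Gsr lost it without any 1 of 6 libraries, which were adult burn replicate 2, adult sham replicates 1 and 3, young burn replicate 3 and young sham replicates 2 and 3, with adjusted p of 0.0543 to 0.110. Without young sham replicate 1 the test passed 8 members, among them Nqo1 (0.0357), Txnrd1 (0.0354) and Nfe2l2 (0.0430). The share of all genes called in that fit is not given here.

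Between the sham groups of both ages, Nqo1, Srxn1 and Txnrd1 stood apart from the other members. Young sham was below adult sham by a log2 difference of -1.06 for Nqo1 (SE 0.17, adjusted p = 0.00154), -0.77 for Srxn1 (SE 0.12, adjusted p = 0.00110) and -0.61 for Txnrd1 (SE 0.13, adjusted p = 0.0102). These 3 of 10 fell in young sham, where 11.8% of all genes were called in either direction and 6.49% were lower. Their groups did not overlap, as for 31.1% of all genes, and the other 7 members overlapped. In the 12-library fit 1 of 10 passed, Nqo1 with an adjusted p of 0.0158, where 3.76% of all genes did. Txnrd1 lost its call without adult sham replicate 2 (adjusted p = 0.0604) or young sham replicate 3 (0.0622). In the study's RNA quality report, the ratio of large to small ribosomal RNA was no higher in any young sham sample than in any adult sham sample. The muscle fibre sum was 110608 to 159173 CPM in young sham and 93120 to 102707 CPM in adult sham. Of its 6 markers, 1 was called higher and 1 lower in young sham. The part of RNA quality and of fibre content was not tested.

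The 7 members that did not pass ranged from -0.24 for Gsr to 0.41 for Mt1. Mt1 was the only member with more than 0.2 in the direction of young sham, at 0.41 with a 95% interval of -0.04 to 0.86. The interval for Hmox1 was -0.27 to 0.40 and that for Gclc was -0.49 to 0.23.

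After burn, the young level was below the adult level for all 10 genes in the 11 libraries. Nqo1, Gclc, Srxn1 and Txnrd1 were lower in young burn, which is 4 of 10, where 20.7% of all genes were called and 9.54% were lower. Their log2 differences were -1.37 for Nqo1 (SE 0.18, adjusted p = 0.000322), -0.97 for Gclc (SE 0.19, adjusted p = 0.00323), -1.36 for Srxn1 (SE 0.12, adjusted p = 1.10e-05) and -1.04 for Txnrd1 (SE 0.15, adjusted p = 0.000432). The 4 calls held without any 1 of the 5 burn libraries, and without adult burn replicate 2 Mt2 passed as well, at -1.97 with an adjusted p of 0.0215. Adult burn replicate 2 held the fewest counts of Mt2 in its group, at 6 against 16 and 23. Mt2 passed the filter on low counts in only 3 of these 5 fits and had no test in the others. The groups did not overlap for 7 of 10, and for 53.2% of all genes with these 2 and 3 libraries.

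The library left out decided most of this comparison. With all 12 libraries 2 of 10 passed, where 10.8% of all genes did, and they were Nqo1 (-1.16, adjusted p = 0.00453) and Gclc (-0.70, adjusted p = 0.0472). The values of Mt1, Hmox1, Gclm, Srxn1, Gsr and Nfe2l2 turned positive, and that of Srxn1 was then 0.78 with an SE of 0.66.

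**Figure D3:**
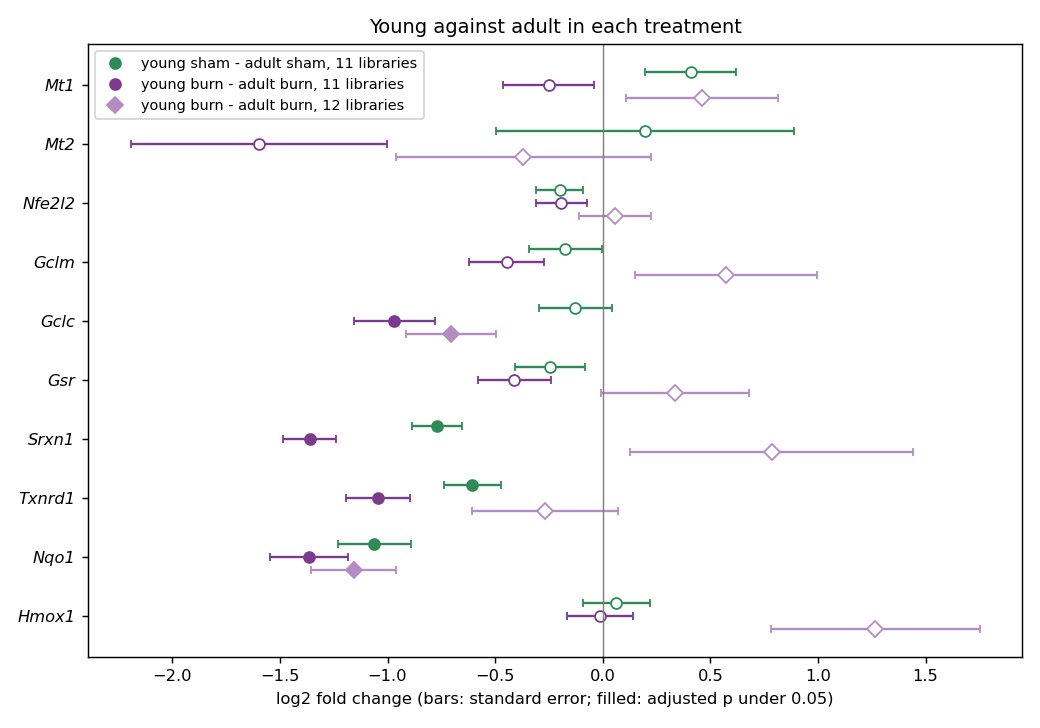
Log2 fold change of young over adult muscle for each gene, with bars of 1 SE and filled marks for an adjusted p under 0.05. Sham values (green circles) are filled for Nqo1, Srxn1 and Txnrd1, burn values with 11 libraries (purple circles) also for Gclc, and with 12 libraries (pale diamonds) Nqo1 and Gclc stay filled while Srxn1 moves from -1.36 to 0.78.

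The difference between the burn effects of both ages was tested as an interaction. The edgeR test called none of the 10 genes in the 11 libraries, where 0.0949% of all genes were called, and DESeq2 called 0, and 0.73% of the genes with an adjusted p. At an unadjusted p under 0.05 edgeR passed 4 of 10, where 11.1% of all genes passed, and all 4 had a smaller log2 difference in young mice. They were Srxn1 (-0.59, SE 0.17, unadjusted p = 0.00303, adjusted p = 0.259), Gclc (-0.84, SE 0.25, unadjusted p = 0.00476, adjusted p = 0.291), Txnrd1 (-0.44, SE 0.20, adjusted p = 0.431) and Mt1 (-0.66, SE 0.30, adjusted p = 0.431). So the rise of Mt1, Gclm, Srxn1 and Txnrd1 in adult mice was not shown to differ from the young response. With all 12 libraries 0 of 10 and 0% of all genes passed, and Mt1, Hmox1, Gclm, Srxn1, Txnrd1 and Gsr changed sign, with Srxn1 at 1.55 (SE 0.97).

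Young burn replicate 2 held the highest levels of most of these genes. Against the mean CPM of young burn replicates 1 and 3, it was 11.3-fold higher for Srxn1, 5.26-fold for Hmox1, 4.97-fold for Mt2, 4.09-fold for Gclm, 3.15-fold for Txnrd1, 3.04-fold for Gsr and 2.92-fold for Mt1. Gclc at 1.62-fold, Nfe2l2 at 1.58-fold and Nqo1 at 1.48-fold were nearer to the other libraries. It was the highest of 12 libraries for 8 of 10 members, as for 18.8% of the 12408 genes tested, and 7 of 10 were over 2-fold, as were 4.27% of all. This is 1 library of 1 mouse and has no replicate check.

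The same library also differed in markers of other cells. The summed level of 7 neutrophil markers was 27.2 CPM there, against 9.20 to 9.50 CPM in the other young burn libraries, 6.69 to 14.8 CPM in adult burn and 2.19 to 5.58 CPM in sham libraries. Most of it was S100a8, at 23.0 CPM against 4.30 and 3.27 CPM in young burn replicates 1 and 3, while S100a9 was at 3.83 CPM against 4.12 and 5.11 CPM. Of that list, Ly6g was at 0 in all 12 libraries, and Mpo and Elane had at most 1 count in any. Cxcr2 had at most 2 counts and Csf3r at most 11. In young burn replicate 2, 4 of the 7 markers were at 0, against 3 in each of young burn replicates 1 and 3. The higher sum there thus rested on S100a8 and not on the list as a whole. The muscle fibre sum was the lowest of all libraries, at 80354 CPM, the red blood cell sum was 179 CPM against 282 to 308 CPM, and the macrophage sum of 388 CPM lay between those of the other young burn libraries. The part of these in the 10 genes was not tested. Of 4 keratinocyte markers, Krt5, Krt14 and Krt1 were at 0 in all libraries, and Krt10 was counted in all 12 and was higher in young sham than in adult sham (log2 difference 0.93, adjusted p = 0.00828).

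**Figure D4:**
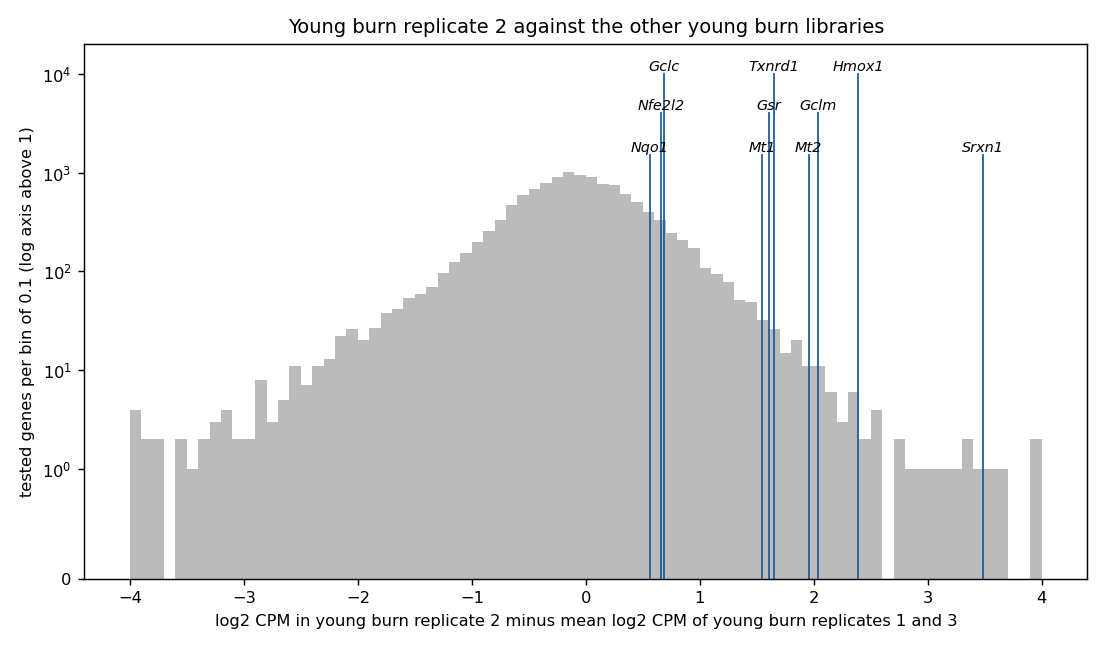
Number of the 12408 tested genes by the log2 CPM of young burn replicate 2 minus the mean log2 CPM of young burn replicates 1 and 3, with differences beyond 4 in the end bins. Blue lines mark the 10 genes, all to the right of 0, with Srxn1 at 3.48, Hmox1 at 2.39 and Nqo1 at 0.56.

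The members were next set against 151 other genes of the same pathways, in 8 lists of NRF2 regulators, glutathione, thioredoxin and peroxiredoxin, NADPH supply, heme and iron, zinc and metallothionein, superoxide and peroxide enzymes, and other NRF2 targets. Of these, 135 passed the filter. In adult burn against adult sham, 4 of 135 rose and 0 fell, with a median log2 difference of 0.055. This is 2.96%, where 0.561% of all genes were called higher, and 0 of the 135 passed with all 12 libraries. They were Osgin1 (0.72, adjusted p = 0.0186), an NRF2 target, Sqstm1 (0.72, adjusted p = 0.0200), which encodes the autophagy receptor p62 that binds KEAP1, Dpp3 (0.58, adjusted p = 0.0364), another KEAP1 binder, and the proteasome subunit gene Psmb5 (0.47, adjusted p = 0.0303). None of the 30 glutathione, 18 thioredoxin and 18 zinc genes passed. The count was 0 when adult burn replicate 2 or 3 or adult sham replicate 3 was left out. It was 1 when adult sham lacked replicate 1 and 2 when it lacked replicate 2.

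In young burn against young sham 1 of the 135 genes passed, Me1, the cytosolic malic enzyme that supplies NADPH, which fell by 0.53 on the log2 scale (SE 0.11, adjusted p = 0.0447). This is 0.741%, near the 0.664% of all genes called. With all 12 libraries Me1 did not pass (adjusted p = 0.0623). The count was 3 without young sham replicate 1 and 0 without each of the other 4 young libraries in the fit. With age as a term 8 of 135 rose and 0 fell, which is 5.93%, where 1.46% of all genes were called higher. The count was 5 without adult burn replicate 2, 3 without adult sham replicate 3 or young burn replicate 3, and 4 without young sham replicate 2. They included Osgin1 (0.67, adjusted p = 0.00475), Sqstm1 (0.60, adjusted p = 0.00804), Dpp3 (0.53, adjusted p = 0.00625), the methionine sulfoxide reductase gene Msrb1 (0.44, adjusted p = 0.0159), the ferritin light chain gene Ftl1 (0.41, adjusted p = 0.0257) and the thioredoxin gene Txn1 (0.37, adjusted p = 0.0477). With all 12 libraries 2 of them passed, Dpp3 and Msrb1.

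Between the sham groups 16 of the 135 genes differed, 6 higher and 10 lower in young mice, and the median log2 difference was -0.0077. This is 11.9%, near the 11.8% of all genes called. The count was 6 with all 12 libraries, and it was 9 when adult sham lacked replicate 2. Leaving replicates 2 and 3 of young sham out in turn gave 10 and 7. Slc30a2, a zinc exporter, was lower by -1.66 (adjusted p = 0.000502), the iron exporter gene Slc40a1 by -0.98 (adjusted p = 0.0119), the extracellular glutathione peroxidase gene Gpx3 by -0.95 (adjusted p = 0.00415) and the microsomal glutathione transferase gene Mgst1 by -0.95 (adjusted p = 0.00525). Sesn3, of the sestrin family, was higher by 0.84 (adjusted p = 0.0173) and the biliverdin reductase gene Blvrb by 0.66 (adjusted p = 0.0143).

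After burn 36 of the 135 genes differed between the ages, 15 higher and 21 lower in young mice, with a median of -0.047. This is 26.7%, against 20.7% of all genes. The count was 17 with all 12 libraries, and it was 23 and 19 without adult burn replicates 2 and 3 and 10 and 13 without young burn replicates 1 and 3. Of 14 NRF2 regulators 7 were lower and 0 higher, where 9.54% of all genes were lower. Among the 7 were the small MAF gene Mafg (-0.69, adjusted p = 0.00191) and the competing repressor gene Bach1 (-0.58, adjusted p = 0.0215). With all 12 libraries 3 regulators were lower, where 4.84% of all genes were. Of 12 superoxide and peroxide enzyme genes 3 were higher and 0 lower, where 11.2% of all genes were higher. With all 12 libraries 0 of these enzyme genes passed. Chac1, which degrades glutathione, was lower by -2.40 (adjusted p = 0.0448) and Slc30a2 by -1.57 (adjusted p = 0.000464). Sesn3 was higher by 1.04 (adjusted p = 0.00622), Ptgr1 by 0.96 (adjusted p = 0.0462) and the peroxidase gene Gpx7 by 0.89 (adjusted p = 0.00103), while Slc40a1 was lower by -0.90 (adjusted p = 0.0145). None of the 135 passed the interaction test in edgeR, where 18 passed at an unadjusted p under 0.05, which is 13.3% against 11.1% of all genes.

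Across the 11 libraries, the members were compared by the Pearson correlation of their log2 CPM, which is given as a description because the libraries share 4 groups and 1 normalization. Nqo1, Txnrd1 and Srxn1 correlated with each other at 0.91 to 0.96. Gclm, Gsr and Nfe2l2 correlated at 0.85 to 0.92, and Mt1, Mt2 and Hmox1 at 0.65 to 0.78. These sets were not separate, since Srxn1 and Txnrd1 correlated with Gsr and Nfe2l2 at 0.82 to 0.84, and Gclm with Mt1 and Hmox1 at 0.70. Gclc correlated at 0.64 to 0.71 with the first set, at 0.30 to 0.40 with the second and at -0.11 with Hmox1. Nqo1 and Mt1 had a correlation of 0.18. With young burn replicate 2 included, the correlation of Nqo1 with Srxn1 fell to 0.55 and that of Hmox1 with Gclm rose from 0.70 to 0.90.

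**Figure D5:**
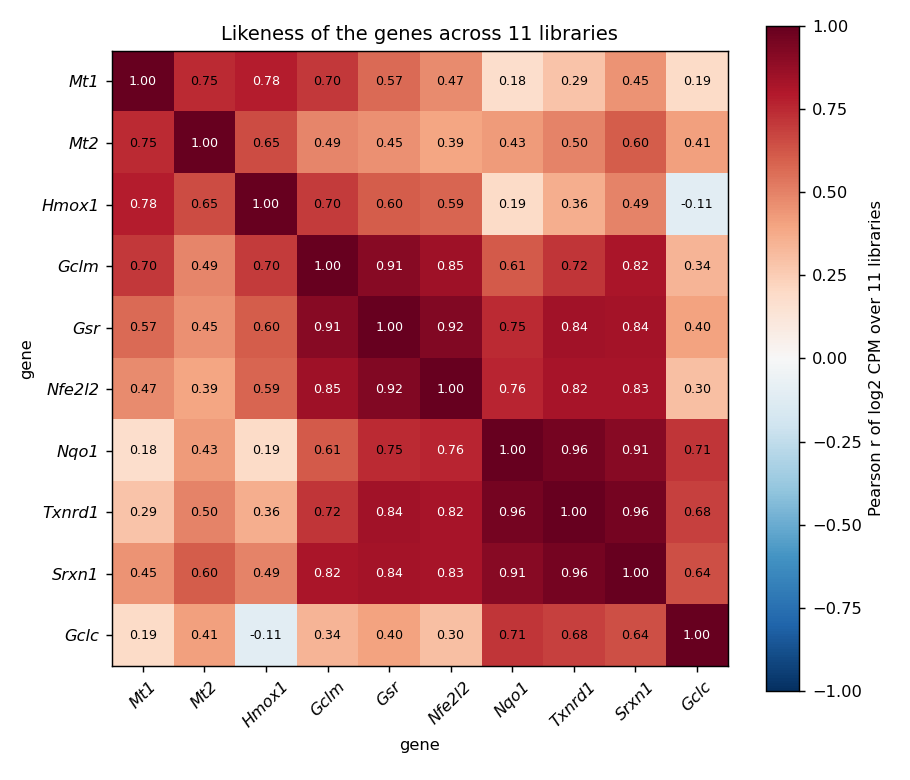
Pearson correlation of log2 CPM between each pair of the 10 genes over 11 libraries, with red for positive and blue for negative values. Nqo1, Txnrd1 and Srxn1 form a block of 0.91 to 0.96, and Gclm, Gsr and Nfe2l2 a block of 0.85 to 0.92.

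Among all 12651 genes, the levels most like those of Mt1, Gclm and Hmox1 included those of proteasome genes. The nearest to Mt1 were Txn1 (0.92), Psmc1 (0.89) and Psmb5 (0.88), the nearest to Gclm were Psma7 (0.98), Txnl1 (0.97) and Psmd4 (0.95), and the nearest to Hmox1 were Psmc4 (0.95), Tbc1d9b (0.92) and Lzts2 (0.90). The nearest to Nqo1 were Syne1 (0.99), Lpin1 (0.99) and Prpf8 (0.99), and Lpin1 (0.98), Lap3 (0.98) and Dnajb9 (0.98) were nearest to Txnrd1. Srxn1 was nearest to Nars (0.99), Ugp2 (0.97) and Rad23b (0.96), Gsr to Herpud2 (0.97), Map1lc3b (0.96) and Tax1bp1 (0.96), and Nfe2l2 to Vcp-rs (0.97), Slc6a9 (0.96) and 1110038B12Rik (0.95). Gclc was nearest to Cnbp (0.97), Ube2b (0.92) and Lsg1 (0.92), and it was the only member with 0 others among its 100 nearest genes. Mt2, with its few counts, was nearest to Cmas (0.90), Gm8566 (0.88) and Rps16-ps2 (0.88). These values rest on 11 libraries and say nothing of shared function.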

How the data were processed

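Poly-A RNA libraries of 12 mice were analysed, and small RNA libraries were not used here. The deposited values are raw read counts per gene, without normalization, which the authors made by mapping to GRCm38 with STAR and its GeneCounts option on Gencode M25. STAR 2.7.5c, bcl2fastq 2.20 and featureCounts 2.0.1 are named in the submitters' processing notes. The sources used here do not give the strand counted, so reads of antisense genes cannot be told apart from those of the members. Of 55401 genes, 260 had no symbol. The 10 members and the gene lists were chosen with earlier results of these data known. Of the lists, all members and, per comparison, up to 6 called genes by absolute log2 fold change are named, and the 3 genes most like each member. Mafg and Bach1 were named after their values were seen, and 1 item is not reported here.

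Counts were filtered with filterByExpr (minimum count 10, minimum total 15), normalized by TMM and fitted with edgeR 4.0.16 in R 4.3.3, two-sided, with all groups in 1 fit and no covariate except age in the additive model. The fit was tested on simulated data. Log2 CPM used a prior count of 2. Positions of members follow Gencode on GRCm38, and promoters follow RefSeq. Total counts of 4392605 to 5688512 make low genes such as Mt2 imprecise. DESeq2 1.42.0, RLE size factors, library size alone, no filter, only the groups compared, a replicate block, all 12 libraries and leaving out each library were the alternatives. Replicates of a group differed by more than sampling noise in every pair. Figures were drawn with matplotlib.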

Additional observations from a re-analysis of the deposited data

Results flagged for a closer look

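The burn libraries of Gclc lay on opposite sides of the sham mean in the 2 ages, and neither burn difference passed the test. Every young burn library in the fit lay below the young sham mean and every adult burn library lay above the adult sham mean, and the young minus adult difference of these changes in mean log2 CPM was -0.84. Whether the sides differ was not tested by this count of libraries. The interaction test gave an unadjusted p of 0.00476 and an adjusted p of 0.291 in edgeR. Young burn replicate 2, at 18.4 CPM, lay above the young sham mean of 16.5 CPM.

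Young burn replicate 2, which the 11-library tests do not use, was above every young sham library for 9 of the 10 members. It held Srxn1 at 339 CPM, Gclm at 249 CPM, Txnrd1 at 194 CPM, Mt1 at 131 CPM, Gsr at 127 CPM, Nfe2l2 at 119 CPM, Hmox1 at 113 CPM, Nqo1 at 34.1 CPM and Mt2 at 4.38 CPM. Over the young sham mean, this was 14.7-fold for Srxn1, 7.28-fold for Hmox1 and 1.67-fold for Nqo1. It is 1 library, so these values have no replicate check.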

How the results depend on the processing

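With all 12 libraries, the members called were 0 in adult burn against adult sham, 1 for burn adjusted for age, 1 in young sham against adult sham and 2 in young burn against adult burn. In that fit the log2 difference changed sign for Mt2 in young burn against young sham (1.16), for Mt1 (0.46), Hmox1 (1.27), Gclm (0.57), Srxn1 (0.78), Gsr (0.34) and Nfe2l2 (0.058) in young burn against adult burn, and for Mt1 (0.040), Hmox1 (1.19), Gclm (0.74), Srxn1 (1.55), Txnrd1 (0.33) and Gsr (0.57) in the interaction. The alternative adds 1 library that stands apart. Without a filter on low counts, 8 members were called in adult burn against adult sham, 1 in young burn against young sham and 7 in young burn against adult burn, where 2%, 2.11% and 10.1% of 28070 genes were called, and the cause was not tested. Library size alone moved the median log2 difference of all genes to 0.16 in young burn against young sham, -0.13 in young sham against adult sham and 0.18 in the interaction. It called 1 member in young burn against young sham, Gclm, and the share of all genes called there is not given here. The same scaling turned Mt2 in young burn against young sham (0.084) and Hmox1 in both age comparisons (-0.070 for sham and 0.019 for burn). In the interaction it turned Hmox1 (0.090) and Gsr (0.00026). Values near 0 changed sign elsewhere. Gclc for burn adjusted for age was -0.00115 with RLE size factors and -0.014 with DESeq2, and Nfe2l2 in the interaction was -0.00488 and -0.011.

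Leaving out 1 library at a time, members called ranged from 1 to 5 in adult burn against adult sham, 0 to 0 in young burn against young sham, 2 to 8 for burn adjusted for age, 2 to 3 in young sham against adult sham, 4 to 5 in young burn against adult burn and 0 to 0 in the interaction. Calls over all genes in these fits ranged from 25 to 161, 2 to 203, 75 to 394, 564 to 1772, 958 to 2595 and 1 to 31 in the same order. Signs turned within the ranges -0.72 to 0.43 (Mt2, young burn against young sham), -0.089 to 0.12 (Gclc, burn adjusted for age), -0.043 to 0.70 (Mt2), -0.21 to 0.041 (Gclc) and -0.30 to 0.019 (Gclm) in young sham against adult sham, -0.24 to 0.19 (Hmox1, young burn against adult burn), and -0.30 to 0.13 (Hmox1) and -0.069 to 0.095 (Nfe2l2) in the interaction. A left-out library leaves 1 young burn library where it is taken from that group, which is then assumed to vary like the others. Mt2 failed the filter on low counts in some of these fits. It was tested in 4 of 6 fits of adult burn against adult sham and 3 of 5 of young burn against adult burn. For burn adjusted for age and for the interaction it was tested in 9 of 11 fits.

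Pairing of the mice by replicate number was not seen, which does not exclude a shared batch or day. Over 15 same-numbered pairs, correlations of deviations from group means ran from -0.17 to 0.13. The deviations of the young burn libraries in the fit mirror each other, so their pairs are not independent. With the replicate number as a block, members called were 4 in adult burn against adult sham, 0 in young burn against young sham, 5 for burn adjusted for age, 3 in young sham against adult sham, 5 in young burn against adult burn and 0 in the interaction. The share of all genes called under the block is not given here. Over the alternatives that kept each library, calls over all genes ranged widely. In the same order they were 1 to 562, 7 to 593, 89 to 799, 467 to 1890, 1343 to 2841 and 0 to 241. Under the block Hmox1 (adjusted p = 0.0517) gave way to Txnrd1 (0.0449) for burn adjusted for age, Mt2 passed in young burn against adult burn (0.0463), and Gclc was -0.00623 for burn adjusted for age.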
